A study of Danio rerio with 11 samples.

Results

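The cholesterol synthesis enzymes described here are 10 genes, hmgcs1, hmgcra, pmvk, idi1, fdft1, sqlea, lss, cyp51, msmo1 and dhcr7, chosen by gene symbol from a table of 16536 genes measured in zebrafish brain. All 10 symbols were found in the table, each on 1 row, and the choice rests on the symbols, not on a threshold in the measured values. It was, however, made with earlier results of these data known. Libraries came from brains of fish labelled as about 8 months old, all of TLF x AB strain and all carrying the mpeg1-GFP line, in which the promoter of a macrophage gene marks macrophages and microglia with a fluorescent protein. The control group is wild type for the csf1r genes (2 libraries). The 3 mutant groups are csf1ra-/- (3 libraries, called single mutants), csf1ra-/-;b+/- (3 libraries, called csf1rb-heterozygous mutants, which also lack csf1ra) and csf1ra-/-;b-/- (3 libraries, called double mutants). The receptor of colony-stimulating factor 1, on which microglia depend, has a pair of gene copies in zebrafish, csf1ra and csf1rb. The design text speaks of triplicate controls; any control library beyond these 2 was not analysed here.

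Cells build cholesterol from acetyl-CoA through mevalonate, isoprenoid diphosphates, squalene and lanosterol. When sterols in the endoplasmic reticulum run low, transcription factors of the SREBP family are released and raise the transcription of most genes of the pathway together, which is well described in mammalian cells. Brain cholesterol is made largely within the brain, and oligodendrocytes use much of it for myelin.

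Between 12.8 and 15.3 M reads per library were assigned to the listed genes, so that 1 CPM (counts per M reads of a library, after the authors' scaling) stands for 12.3 to 15.7 reads. Neuronal, oligodendrocyte and radial glia markers were detected in every library, as the tissue label asks. csf1ra lay at 9.66 and 7.33 CPM in the controls, 1.62, 0.952 and 5.10 CPM in the single mutants, 0.905, 0.976 and 0.584 CPM in the csf1rb-heterozygous mutants and 0.127, 0 and 0.602 CPM in the double mutants, without overlap between control and mutant libraries. The 3 libraries numbered 2 in the sample descriptions stood apart on the first principal component, which held 26.9% of the variance (19.1 to 39.7 against -30.9 to 6.87 for the other 8), and no control library bears that number. Whether each replicate is a fish of its own is not stated in the labels, and all p-values below therefore reflect variation among these libraries alone, possibly technical.

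In single mutant brains most of the enzymes lay above the controls. In double mutant brains their median difference from control was -0.02 on the log2(CPM + 1) scale, with 5 enzymes above and 5 below 0. Of these, pmvk fell (-1.22) and was the only enzyme called there. Against control, hmgcs1, fdft1 and lss rose in the single mutants, to 2.24, 2.30 and 2.43 times the control mean. From single to double mutants, hmgcs1, lss, cyp51 and msmo1 fell, to 0.486, 0.505, 0.539 and 0.491 times the single mutant mean. For 7 enzymes (hmgcs1, hmgcra, idi1, fdft1, sqlea, lss and cyp51) the csf1rb-heterozygous mean lay below that of the single mutants and above those of controls and double mutants. For idi1, sqlea and cyp51, however, csf1rb-heterozygous replicate 3 lay below both controls, at 32.6, 15.1 and 33.4 CPM. In the limma fit without a block by replicate number, no enzyme was called between this group and any other. With the description number as a block, cyp51 was called against the single mutants (-0.67, limma adjusted p = 0.0387). With the title number as a block, which pairs the libraries of these groups in the same way, it was not called (-0.67, limma adjusted p = 0.0522). The order of the 4 group means had single mutants highest for 8 of the 10 enzymes, while the lowest mean was that of the controls for 5 enzymes and that of the double mutants for the other 5. The share of all genes with these orders of group means is not given here, so these counts have no baseline. In these bulk samples, fewer cells of a type and less RNA per cell cannot be told apart.

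**Figure D1:**
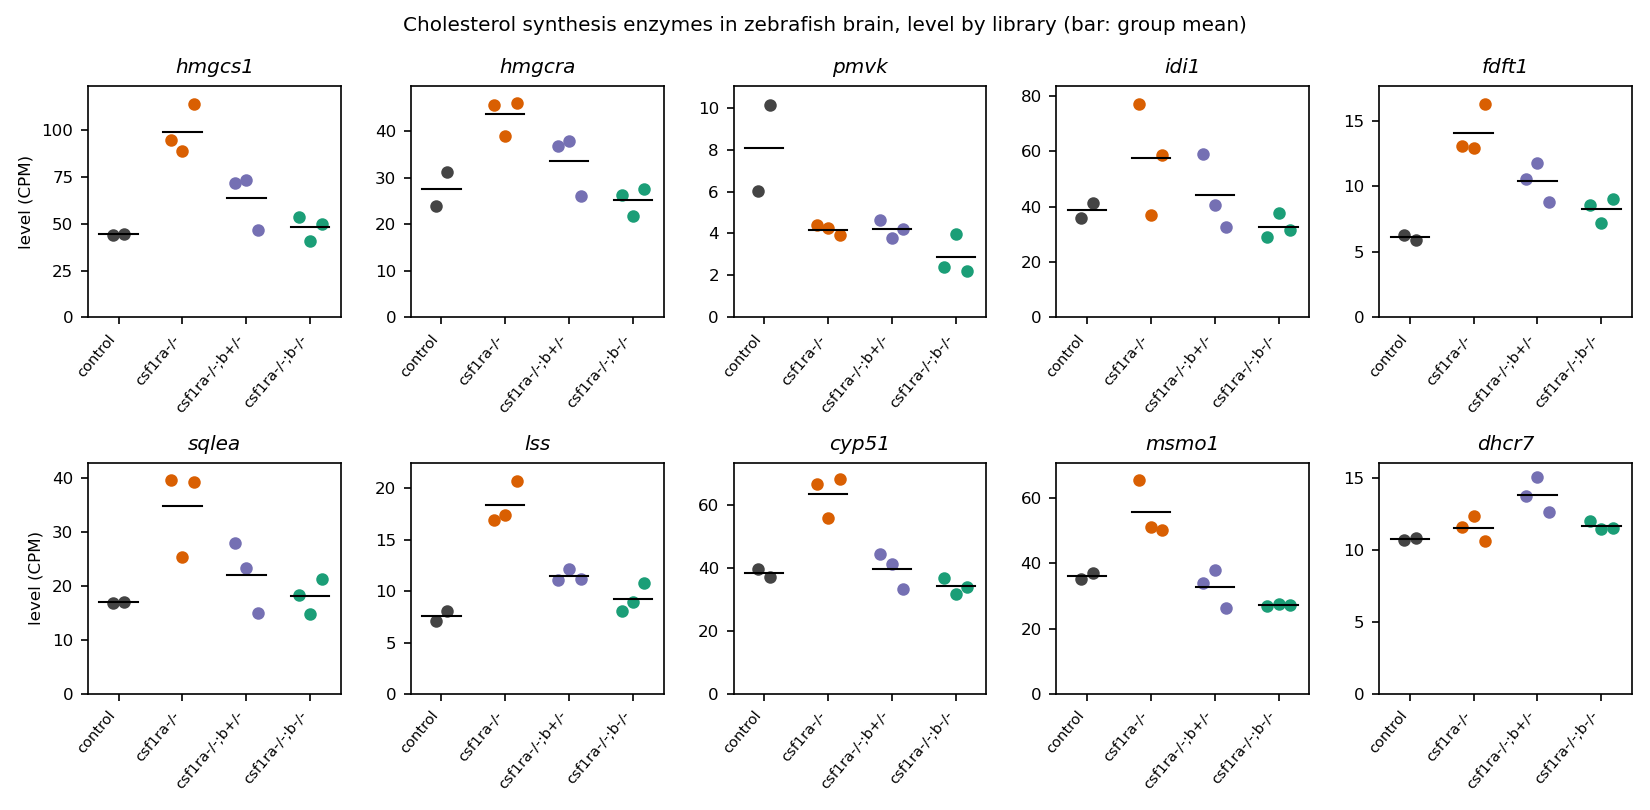
Level of each of the 10 enzymes (vertical axis, CPM, starting at 0, with its own range per panel) in the 11 libraries by genotype. Each point is a library and each bar a group mean: for hmgcs1 the single mutants lie at 89.1 CPM or above and all control and double mutant libraries at 53.6 CPM or below, while pmvk is highest in control and dhcr7 in the csf1rb-heterozygous mutants.

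hmgcs1 and hmgcra act early in the pathway. hmgcs1 (ENSDARG00000103025) encodes the cytosolic synthase that makes HMG-CoA. Its level was 44.1 and 44.6 CPM in the controls, 94.6, 89.1 and 114 CPM in the single mutants, 71.6, 73.5 and 46.5 CPM in the csf1rb-heterozygous mutants and 53.6, 41.0 and 50.1 CPM in the double mutants. Every single mutant library lay above every other library, and among csf1rb-heterozygous libraries the third lay close to control. The difference between single mutants and controls was 1.14 on the log2(CPM + 1) scale (SE 0.190, 95% interval 0.72 to 1.55, limma adjusted p = 0.0269), and this scale understates the fold of genes with few reads. That between double and single mutants was -1.03 (SE 0.170, 95% interval -1.40 to -0.65, limma adjusted p = 0.0159). Double mutants and controls overlapped, with a difference of 0.11 and a 95% interval from -0.31 to 0.53, which does not show that they are equal.

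hmgcra (ENSDARG00000052734) encodes HMG-CoA reductase, the rate-limiting and statin-sensitive step of the pathway. Its level was 23.9 and 31.2 CPM in the controls, 45.8, 39.0 and 46.2 CPM in the single mutants, 36.7, 37.9 and 26.1 CPM in the csf1rb-heterozygous mutants and 26.4, 21.8 and 27.6 CPM in the double mutants. The single mutants lay above all other libraries, but without a block the differences did not pass the test. They were 0.65 against control (SE 0.180, limma adjusted p = 0.181) and -0.77 in double against single mutants (SE 0.161, limma adjusted p = 0.0539). The latter was called with the description number as a block (limma adjusted p = 0.0401), but not with the title number (0.0520). Its second copy, hmgcrb, had means of 37.1 CPM in control, 43.5 in single, 44.1 in csf1rb-heterozygous and 41.2 in double mutants. Its difference between double and single mutants was -0.07 (SE 0.119, limma adjusted p = 0.906). Reads of 50 nucleotides may match both copies, and how such reads were counted is not given in the sources used here, so the split between hmgcra and hmgcrb is uncertain.

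pmvk and idi1 act in the middle of the mevalonate route. pmvk (ENSDARG00000070798), phosphomevalonate kinase, went a way of its own. It was measured at 6.05 and 10.1 CPM in the controls, 4.38, 4.25 and 3.93 CPM in the single mutants, 4.66, 3.77 and 4.22 CPM in the csf1rb-heterozygous mutants and 2.41, 3.95 and 2.21 CPM in the double mutants. All 9 mutant libraries lay below both controls, and the 3 mutant groups overlapped with each other. In double mutants it fell by 1.22 on the log2(CPM + 1) scale (SE 0.242, 95% interval -1.75 to -0.70, limma adjusted p = 0.0367). The differences of the single mutants (-0.77, limma adjusted p = 0.247) and of the csf1rb-heterozygous mutants (-0.77, limma adjusted p = 0.175) from control did not pass. The fall in double mutants was not called without control replicate 2, the highest library (-0.90, limma adjusted p = 0.281), nor without double mutant replicate 1 (0.118) or 3 (0.0986), nor when only these groups entered the fit.

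idi1 (ENSDARG00000019976), isopentenyl diphosphate isomerase, makes the allylic building block of all isoprenoids. Its level was 35.8 and 41.4 CPM in the controls, 77.1, 36.8 and 58.5 CPM in the single mutants, 58.8, 40.6 and 32.6 CPM in the csf1rb-heterozygous mutants and 28.9, 37.7 and 31.5 CPM in the double mutants. The single mutants spread from below the control mean to above every other library, and overlapped with each other group. No difference passed the test, the largest being -0.74 between double and single mutants (SE 0.254, limma adjusted p = 0.253).

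fdft1 and sqlea commit the route to sterols. fdft1 (ENSDARG00000101062), squalene synthase, joins farnesyl diphosphate into squalene. Its level was 6.31 and 5.94 CPM in the controls, 13.1, 12.96 and 16.3 CPM in the single mutants, 10.6, 11.8 and 8.82 CPM in the csf1rb-heterozygous mutants and 8.57, 7.19 and 9.04 CPM in the double mutants. All 9 mutant libraries lay above both controls, and the single mutants above all others. It rose by 1.08 in single mutants (SE 0.172, 95% interval 0.70 to 1.45, limma adjusted p = 0.0202). The differences from control of 0.67 in csf1rb-heterozygous mutants (SE 0.172, limma adjusted p = 0.105) and 0.37 in double mutants (SE 0.172, limma adjusted p = 0.314) were not called, nor was that of -0.70 between double and single mutants (SE 0.154, limma adjusted p = 0.0616). The last of these was called with the description number as a block (limma adjusted p = 0.0478), but not with the title number (0.0599).

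sqlea (ENSDARG00000079946) encodes squalene epoxidase, the first oxygen-requiring step. Its level was 16.8 and 17.1 CPM in the controls, 39.7, 25.5 and 39.4 CPM in the single mutants, 27.98, 23.3 and 15.1 CPM in the csf1rb-heterozygous mutants and 18.4, 14.9 and 21.4 CPM in the double mutants. The single mutants lay above all control and double mutant libraries, with replicate 2 well below the other two. At 0.97 against control (SE 0.255, limma adjusted p = 0.154) and -0.89 in double against single mutants (SE 0.228, limma adjusted p = 0.115), neither difference passed.

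lss, cyp51 and msmo1 carry squalene epoxide to lanosterol and strip its first methyl groups. lss (ENSDARG00000061274), lanosterol synthase, closes the sterol ring system. It was measured at 7.10 and 8.02 CPM in the controls, 16.96, 17.4 and 20.7 CPM in the single mutants, 11.1, 12.1 and 11.2 CPM in the csf1rb-heterozygous mutants and 8.06, 8.99 and 10.8 CPM in the double mutants. The groups followed one another without overlap, control lowest, then double, csf1rb-heterozygous and single mutants. It rose by 1.17 in single mutants against control (SE 0.157, 95% interval 0.83 to 1.52, limma adjusted p = 0.00741) and fell by 0.92 from single to double mutants (SE 0.141, 95% interval -1.23 to -0.61, limma adjusted p = 0.0102). Its difference of 0.54 between csf1rb-heterozygous mutants and controls was not called (SE 0.157, limma adjusted p = 0.145).

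cyp51 (ENSDARG00000042641) is the cytochrome P450 that removes the 14-alpha methyl group of lanosterol. Its level was 39.5 and 37.0 CPM in the controls, 66.5, 55.7 and 68.0 CPM in the single mutants, 44.5, 41.2 and 33.4 CPM in the csf1rb-heterozygous mutants and 36.8, 31.7 and 34.005 CPM in the double mutants. Single mutants lay above all other libraries, and double mutants just below both controls. It fell by 0.87 from single to double mutants (SE 0.123, 95% interval -1.14 to -0.60, limma adjusted p = 0.00648). Without a block, the difference of 0.71 between single mutants and controls narrowly missed the threshold (SE 0.138, limma adjusted p = 0.0528). It was called with the description number (limma adjusted p = 0.0271) or the title number (0.0356) as a block.

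msmo1 (ENSDARG00000055876), the sterol C4-methyl oxidase, starts the removal of the C4 methyl groups. Its level was 35.2 and 37.1 CPM in the controls, 65.5, 51.0 and 50.2 CPM in the single mutants, 34.1, 37.9 and 26.5 CPM in the csf1rb-heterozygous mutants and 26.99, 27.6 and 27.2 CPM in the double mutants. The double mutant libraries lay close together and below both controls. It fell by 0.99 from single to double mutants (SE 0.1395, 95% interval -1.30 to -0.68, limma adjusted p = 0.00640). Differences from control of 0.60 in single mutants (SE 0.156, limma adjusted p = 0.154) and -0.39 in double mutants (SE 0.156, 95% interval -0.74 to -0.05, limma adjusted p = 0.247) were not called.

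dhcr7 (ENSDARG00000103226), 7-dehydrocholesterol reductase, makes cholesterol in the last step of one route. Its level was 10.6 and 10.8 CPM in the controls, 11.6, 12.3 and 10.6 CPM in the single mutants, 13.7, 15.1 and 12.6 CPM in the csf1rb-heterozygous mutants and 12.0005, 11.4 and 11.5 CPM in the double mutants. Here the csf1rb-heterozygous libraries, not the single mutants, were highest. No difference passed the test: it was 0.09 between single mutants and controls (95% interval -0.20 to 0.38, limma adjusted p = 0.826), 0.33 between csf1rb-heterozygous mutants and controls (95% interval 0.04 to 0.62, limma adjusted p = 0.266) and 0.02 between double and single mutants (95% interval -0.24 to 0.28, limma adjusted p = 0.984).

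Taken over the list, the single mutants against control gave 3 enzymes that rose and 0 that fell (hmgcs1, fdft1 and lss), where 0.472% of all 16536 genes were called, 0.296% rose and 0.175% fell. The median difference of the 10 was 0.68 on the log2(CPM + 1) scale, against 0.01 over all genes, and 9 of 10 were above 0. For 7 enzymes (hmgcs1, hmgcra, fdft1, sqlea, lss, cyp51 and msmo1) every single mutant library lay above both controls, as for 15.6% of all genes, and pmvk lay wholly below, as for 13.7%. Of the 3 calls, none held in every fit that left out a library. Without the 3 libraries numbered 2, an alternative chosen after seeing the data, all 3 were called (limma adjusted p = 0.0404 for hmgcs1, 0.0435 for fdft1 and 0.0404 for lss). hmgcs1 was not called when any 1 of the 5 libraries was left out (limma adjusted p = 0.0564 to 0.170). fdft1 was called only without single mutant replicate 1, and not without control replicate 1 (0.0862) or 2 (0.154) or single mutant replicate 2 (0.0565) or 3 (0.0828), nor when only these groups entered the fit. lss was not called without control replicate 1 (0.0633) or 2 (0.0522). Over the 5 fits that left out a library, the median of the 10 enzymes lay between 0.65 and 0.79. Between libraries with the same number in the sample descriptions, the median was 0.93 for number 1, with 9 of 10 enzymes above 0, and 0.71 for number 3, with 8.

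**Figure D2:**
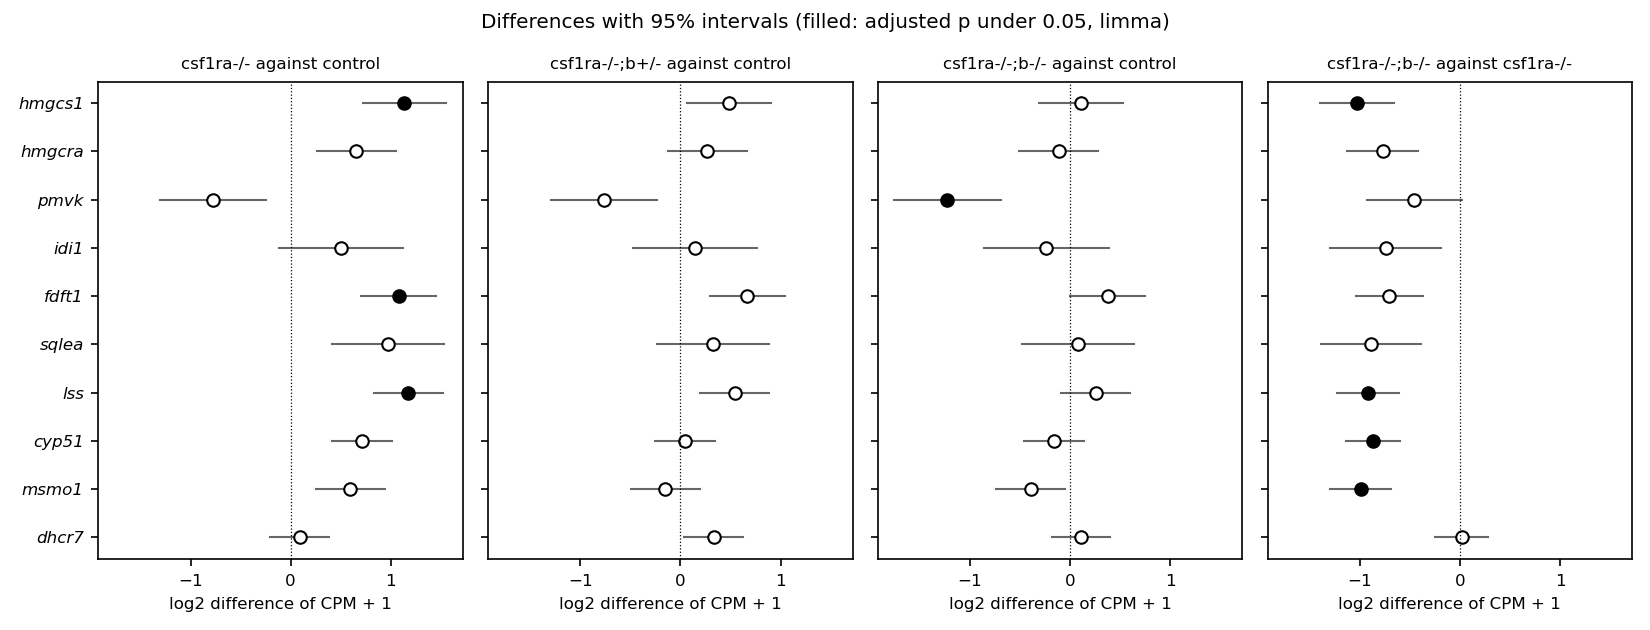
Difference of each enzyme (horizontal axis, log2 of CPM + 1, first group minus second) in 4 comparisons, with 95% intervals from limma; filled points have an adjusted p under 0.05. Single mutants lie to the right of control for 9 of 10 enzymes, double mutants to the left of single mutants for 9 of 10, and against control only pmvk is filled for the double mutants.

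The 3 single mutant libraries enter both the comparison with control and that with double mutants, so that a high value in them raises the first difference and lowers the second. In double against single mutants, 4 enzymes fell and 0 rose (hmgcs1, lss, cyp51 and msmo1), where 0.943% of all genes were called, 0.617% fell and 0.327% rose. The median was -0.82, against 0.00 over all genes, with 9 of 10 below 0. Every double mutant library lay below every single mutant library for hmgcs1, hmgcra, fdft1, sqlea, lss, cyp51 and msmo1, which makes 7 of 10, against 8.32% of all genes, and none lay wholly above, against 7.89%. cyp51 and msmo1 were called in all 6 fits that left out a library. hmgcs1 was not called without single mutant replicate 3 (limma adjusted p = 0.0831) or double mutant replicate 2 (0.0704), and lss without single mutant replicate 3 (0.0621) or double mutant replicate 1 (0.0517). Without the 3 libraries numbered 2, of which no control exists, 2 enzymes were called, cyp51 (-0.91, limma adjusted p = 0.0398) and msmo1 (-1.05, limma adjusted p = 0.0384). The median within description numbers 1, 2 and 3 was -0.82, -0.78 and -0.86, with 1 of 10 enzymes above 0 in each.

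Double mutants against control gave 1 call, the fall of pmvk, where 1.16% of all genes were called, 0.798% fell and 0.363% rose. The median of the 10 enzymes was -0.02, against 0.01 over all genes, with 5 above and 5 below 0. fdft1, lss and dhcr7 lay wholly above the controls, as for 19.9% of all genes, and pmvk, cyp51 and msmo1 wholly below, as for 16.6%. Setting pmvk aside, the differences ranged from -0.39 for msmo1 to 0.37 for fdft1.

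The csf1rb-heterozygous mutants against control gave 0 calls with limma, where 0.671% of all genes were called, 0.266% higher and 0.405% lower. An unadjusted p under 0.05 in limma was found for 5 enzymes and for 2575 of all 16536 genes. With edgeR 0 enzymes were called and with DESeq2 1, fdft1. The share of all genes called by edgeR or DESeq2 is not given here. The median of the 10 enzymes was 0.30, against 0.00 over all genes, and hmgcs1, fdft1, lss and dhcr7 lay wholly above the controls, as for 17.8% of all genes, and pmvk wholly below, as for 16.6%. Against single mutants the csf1rb-heterozygous mutants also gave 0 calls with limma, where 0.187% of genes were called, 0.0726% higher and 0.115% lower. An unadjusted p under 0.05 in limma was found for 7 enzymes and for 1039 of all 16536 genes. With edgeR 0 enzymes were called and with DESeq2 3. The median of the 10 enzymes was -0.52, and 6 enzymes lay wholly below the single mutants, as for 6.46% of all genes, and dhcr7 wholly above, as for 5.27%. The differences of cyp51 (-0.67, SE 0.123, limma adjusted p = 0.0795) and msmo1 (-0.75, SE 0.1395, limma adjusted p = 0.0825) came nearest to the threshold. The replicate numbers were treated as pairing the libraries of these groups because of correlations in these same data. What a number shares is not stated in the labels. In a fit of all 4 groups with the description number as a block cyp51 was called (-0.67, limma adjusted p = 0.0387). With the title number as a block no enzyme was called (cyp51, limma adjusted p = 0.0522). Title and description numbers are the same in both of these groups and differ only for a control library, so the pairing itself did not change between these fits. The group was uneven: the median of the 10 enzymes relative to the control mean was 0.46 and 0.44 in replicates 1 and 2 and -0.11 in replicate 3. Double against csf1rb-heterozygous mutants gave 0 calls with limma, edgeR or DESeq2, where 0.0847% of genes were called by limma, 0.0363% higher and 0.0484% lower. An unadjusted p under 0.05 in limma was found for 2 enzymes and for 864 of all 16536 genes. All 10 differences were below 0 there, with a median of -0.29, against 0.01 over all genes. lss and dhcr7 lay wholly below, as for 4.83% of all genes, and none wholly above, against 4.26%. Within description numbers 1, 2 and 3 the median of the 10 enzymes was -0.41, -0.42 and 0.03. Of the 10, 0, 1 and 6 were above 0 in these numbers.

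In the authors' deposited table, at an adjusted p under 0.05, 3 enzymes were higher in the single mutants than in wild type, 4 were lower in the double than in the single mutants and 1 was lower in the double mutants than in wild type. The share of all genes at that threshold in the authors' comparisons is not given here, so these counts have no baseline. The authors' deposited table gave fdft1 a log2 fold change of 1.203 and lss one of 1.280 in single mutants against wild type, beside 1.08 and 1.17 on the log2(CPM + 1) scale here.

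Some of the 10 enzymes lay closer to the mean profile of the others over the libraries. Over the 11 libraries, the mean absolute difference between an enzyme's centred log2(CPM + 1) level and the mean of the others was 0.08 for hmgcra, 0.12 for cyp51 and 0.17 for msmo1, and 0.30 for dhcr7 and 0.48 for pmvk. This measure counts the size of a change as well as its direction. By it hmgcra and cyp51 lay closest to the group, and pmvk and dhcr7 farthest from it. hmgcs1, fdft1 and lss, the enzymes that rose in single mutants against control, had values of 0.20, 0.19 and 0.21.

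The other listed enzymes of the route had smaller median differences in the comparisons given here. Members and lists were chosen with earlier results of these data known, so this contrast may follow from that choice. Of 12 listed, 5 belong to the mevalonate route (acat2, hmgcrb, mvk, mvda and fdps) and 7 to the sterol branch (tm7sf2, lbr, nsdhl, hsd17b7, ebp, sc5d and faxdc2). In single mutants against control 11 of the 12 differences were above 0, with a median of 0.34, and limma, edgeR and DESeq2 called 0. An unadjusted p under 0.05 in limma was found for 6 of the 12 and for 1881 of all 16536 genes. From single to double mutants 11 were below 0, with a median of -0.30, and 1 fell in limma, fdps. There edgeR called 1 and DESeq2 called 2, with 6 of the 12 and 1874 of all 16536 genes at an unadjusted p under 0.05 in limma. fdps makes farnesyl diphosphate, the substrate of squalene synthase. Its level was 34.6 and 38.3 CPM in the controls, 56.1, 43.5 and 50.0 CPM in the single mutants, 38.1, 42.0 and 39.0 CPM in the csf1rb-heterozygous mutants and 34.1, 34.5 and 34.005 CPM in the double mutants. Its fall of 0.52 (SE 0.105, limma adjusted p = 0.0406) was called in 1 of the 6 fits that left out a library, without single mutant replicate 2, and had an adjusted p between 0.0934 and 0.149 in the other 5. tm7sf2 and faxdc2, the sterol branch genes with the highest mean level, differed by 0.36 and 0.32 in single mutants against control and by -0.31 and -0.14 in double against single mutants, with none called.

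**Figure D3:**
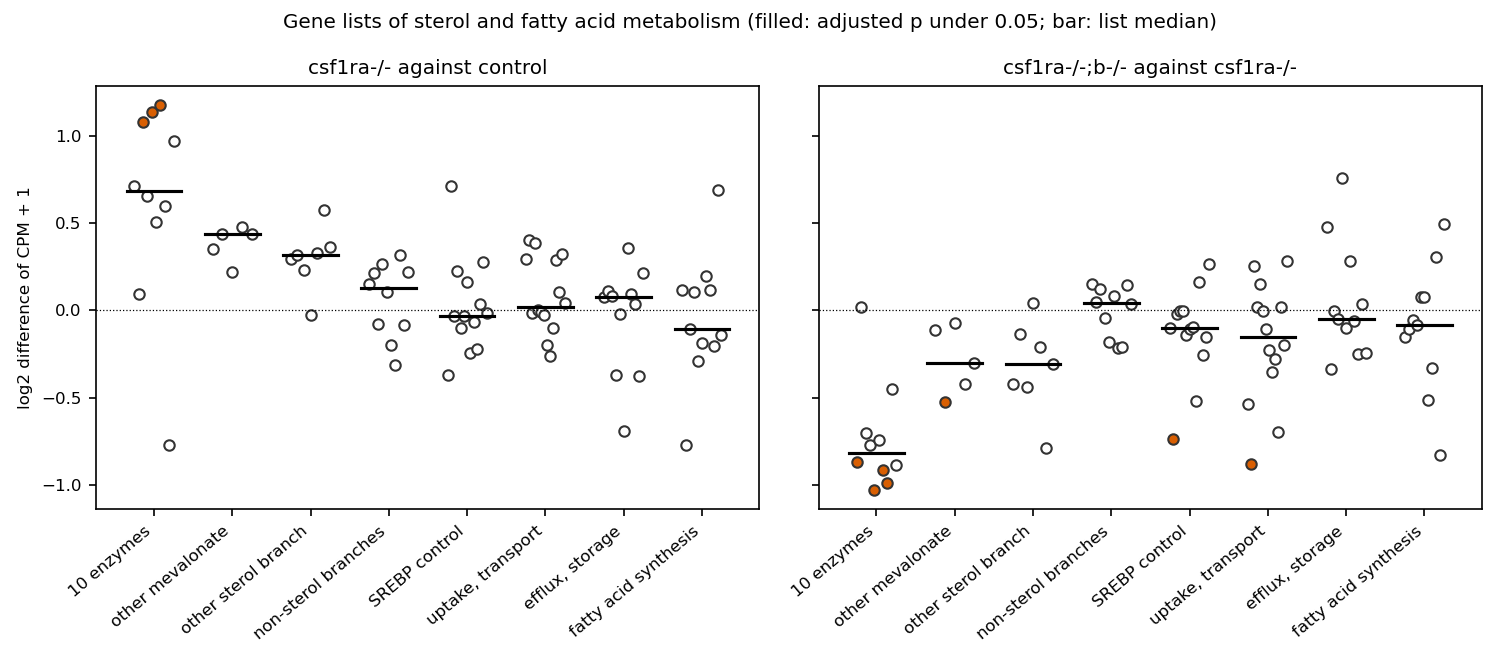
Difference of each gene (vertical axis, log2 of CPM + 1, first group minus second) by gene list, for single mutants against control and double against single mutants; bars are list medians and filled points have an adjusted p under 0.05 in limma. The 10 enzymes have a median of 0.68 in the first and -0.82 in the second, while fatty acid synthesis genes have medians of -0.10 and -0.08. Single fatty acid synthesis genes range from -0.77 to 0.69 in the first and from -0.83 to 0.49 in the second.

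Genes that sense and import sterols gave few calls. Of 13 listed genes of SREBP processing, 0 were called in single mutants against control by limma or edgeR and 1 by DESeq2, with 2 at an unadjusted p under 0.05 in limma and a median of -0.03. From single to double mutants limma and edgeR called 1, DESeq2 called 2 and 2 had an unadjusted p under 0.05 in limma. Of all 16536 genes, 1881 in the first comparison and 1874 in the second had an unadjusted p under 0.05 in limma. The gene that fell from single to double mutants in limma was insig1. It holds SREBP in the endoplasmic reticulum when sterols are plentiful and is itself an SREBP target in mammals. insig1 lay at 61.0 and 53.0 CPM in the controls, 78.8, 88.8 and 118 CPM in the single mutants, 71.5, 66.4 and 80.7 CPM in the csf1rb-heterozygous mutants and 53.7, 55.9 and 58.0 CPM in the double mutants. It fell by 0.74 from single to double mutants (SE 0.138, limma adjusted p = 0.0283), a call that held in 1 of 6 fits that left out a library, without single mutant replicate 1, and had an adjusted p between 0.0606 and 0.113 in the other 5. srebf2, which encodes the SREBP that drives sterol synthesis, had means of 110.4 ± 17.5 CPM (SD, n = 2) in control, 134 ± 15.7 (SD, n = 3) in single, 151 ± 23.0 (SD, n = 3) in csf1rb-heterozygous and 119.8 ± 11.4 (SD, n = 3) in double mutants. No difference of srebf2 was called.

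Of 14 genes of sterol uptake and transport, 1 fell from single to double mutants, ldlrb, a low-density lipoprotein receptor, with 1 called by edgeR, 1 by DESeq2 and 4 at an unadjusted p under 0.05 in limma. In that comparison 1874 of all 16536 genes had an unadjusted p under 0.05. ldlrb lay at 28.52 and 28.54 CPM in the controls, 29.0, 41.4 and 45.9 CPM in the single mutants, 25.3, 31.03 and 29.3 CPM in the csf1rb-heterozygous mutants and 21.9, 18.6 and 20.3 CPM in the double mutants. Its fall of 0.88 (SE 0.156, limma adjusted p = 0.0210) was called in 1 of 6 fits that left out a library, without single mutant replicate 1, and had an adjusted p between 0.0589 and 0.0970 in the other 5. Of 11 genes of efflux, storage and oxidation, 0 were called by limma or edgeR and 1 by DESeq2 in double against single mutants, with 3 at an unadjusted p under 0.05 in limma and a median of -0.05. In double mutants against control abca1a, a cholesterol exporter and liver X receptor target in mammals, rose by 0.55 (SE 0.110, limma adjusted p = 0.0381), a call lost in each of the 5 fits that left out a library. In csf1rb-heterozygous mutants against control apoeb, an apolipoprotein that zebrafish microglia express highly, fell by 0.86 (limma adjusted p = 0.0240) and was called in 1 of 5 such fits.

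Lists that share the precursors but not the sterol end product gave no calls with limma or edgeR in these comparisons. Of 10 genes of the non-sterol branches, among them ggps1 and fnta, 0 were called by limma, edgeR or DESeq2 in single mutants against control or in double against single mutants, and 0 had an unadjusted p under 0.05 in limma in either. Their medians were 0.13 and 0.04. Of 11 genes of fatty acid synthesis, among them fasn and fads2, 0 were called by limma or edgeR in either comparison, with 2 and 3 at an unadjusted p under 0.05 in limma and 0 and 1 called by DESeq2. Their medians were -0.10 and -0.08, but the genes differed among themselves, from -0.77 to 0.69 in the first comparison and from -0.83 to 0.49 in the second. Of all 16536 genes, 1881 and 1874 had an unadjusted p under 0.05 in these comparisons.

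Summed levels of cell type markers also differed between the groups. The summed level of the 10 enzymes was 225.5 to 243 CPM in control, 344 to 435 in single, 217 to 314 in csf1rb-heterozygous and 206 to 225.4 in double mutants. For 23 measured microglia and macrophage genes the summed level was 753 to 1248, 554 to 821, 402 to 430 and 330 to 435 CPM in the same order, with csf1ra and c1qa each at 0 in 1 library. Much of this sum was apoeb, at 125 to 259 CPM over the libraries, and cd74a, at 20.6 to 329 CPM. apoeb is also in the list of efflux, storage and oxidation genes. In single mutants against control 21 of these 23 were below 0, where 50.9% of all genes were above 0. There 1 fell, the chemokine gene ccl34b.1 (-1.49, limma adjusted p = 0.0476), where 0.175% of all genes fell. It was called in 0 of the 5 fits that left out a library. In double mutants against control 18 of the 23 fell, where 0.798% of all genes fell. For 9 red blood cell genes the summed level was 218 to 322, 452 to 777, 287 to 440 and 338 to 495 CPM, highest on average in the single mutants as for the enzymes. In single mutants against control all 9 were above 0, with a median of 1.31, and 7 lay wholly above the controls, as for 15.6% of all genes. Of these 9, limma and edgeR called 0, DESeq2 called 3 and all 9 had an unadjusted p under 0.05 in limma, where 1881 of all 16536 genes did. For 11 oligodendrocyte genes the summed level was 9206 to 10608, 6729 to 7713, 7427 to 8215 and 6176 to 7766 CPM, highest in control. Much of this sum was the myelin gene mbpa, at 3625 to 7624 CPM over the libraries. The median difference of the 11 genes was -0.16 in single mutants against control and 0.04 in double against single mutants. The part of these cell types in the enzymes' differences was not tested.

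**Figure D4:**
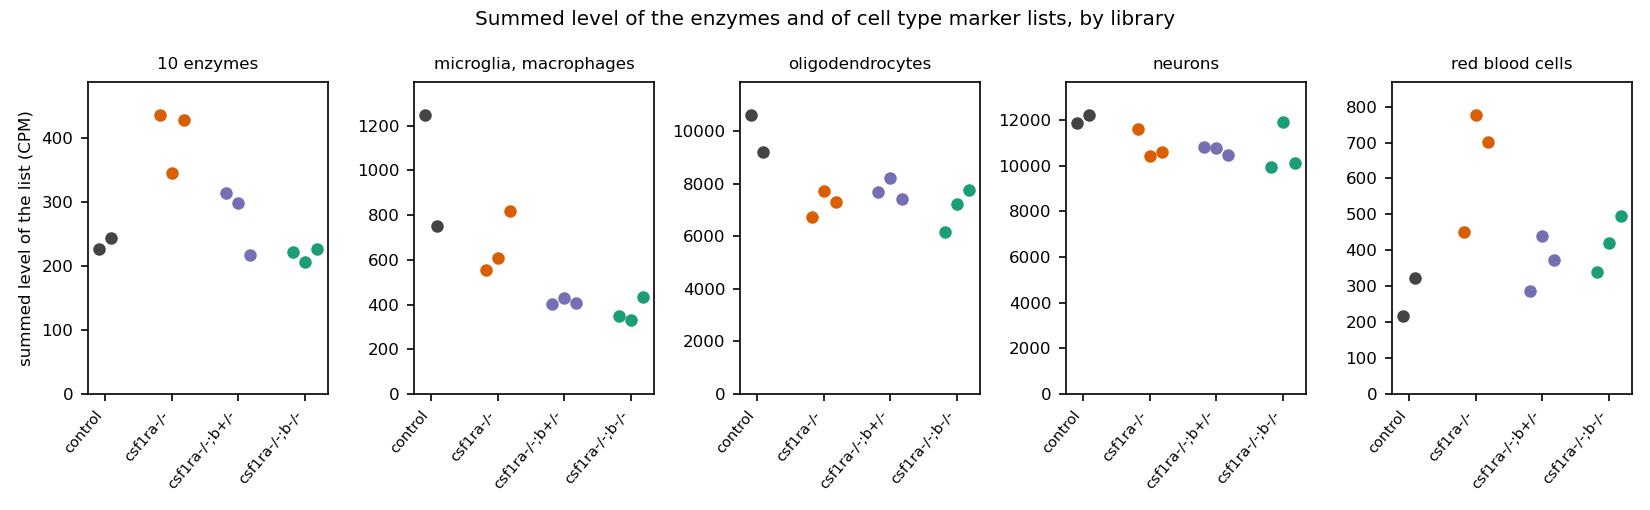
Summed level (vertical axis, CPM, starting at 0, own range per panel) of the 10 enzymes and of 4 lists of cell type markers in each of the 11 libraries by genotype. The enzymes are at 344 CPM or above in single mutants and 314 or below elsewhere, microglia genes are lowest in csf1rb-heterozygous and double mutants, and red blood cell genes are highest on average in single mutants.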

How the data were processed

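RNA of 11 zebrafish brain libraries was sequenced as single-end reads after pre-amplification and Tn5 tagmentation, per the labels' protocols. Per the submitters' processing notes the tools were HISAT2 and edgeR and the build was GRCz10. Not given in the sources used here are their versions, the read counter and how it handled strand or multiply mapping reads, and the gene annotation. The signal deposited by the authors is a table of CPM for 16536 genes, scaled per library by factors of 0.963 to 1.04. Of its values, 100% were whole reads within a tolerance of 0.001 reads, so reads could be recovered, and each gene exceeded 1 CPM in at least 3 libraries. The authors' deposited log2 CPM was not used, and their log2 fold changes and adjusted p-values were used only where named.

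The 6 pairs of genotypes were compared with limma 3.58.1 (R 4.3.3), a moderated test with a trended variance on values of log2(CPM + 1). The 4 groups shared 1 fit and no block was used. Deviations of same-numbered single and csf1rb-heterozygous mutants correlated at r = 0.379 to 0.687 over 3 pairs, so these numbers, taken from titles and descriptions, were treated as pairing these 2 groups; the other mutant pairs of groups reached down to r = 0.0433 and 0.0882, and controls gave 2 pairs each. P-values are two-sided and Benjamini-Hochberg adjusted over 16536 genes, with calls at an adjusted p under 0.05. Because the deposited signal is scaled, count tests on the recovered reads (edgeR 4.0.16 quasi-likelihood, DESeq2 1.42.0) were alternatives, beside pseudocounts of 0.1 and 5, a mean of at least 5 CPM, other scalings, only the groups compared, replicate blocks and leaving out libraries. The fit was also run on simulated data, with the same extra spread set for all genes and no difference between replicate numbers. That setting leaves out the separation of the libraries numbered 2, so the run does not show how the fit performs on these data. The 95% intervals come from the fit and so from the spread between libraries.

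The 10 enzymes were always named; of each other list, genes called in any comparison (up to 6) or, with none called, the 2 with the highest mean were named, and the 8 genes most like the enzymes. Named outside this rule, after their values were seen, were hmgcrb, srebf2, csf1ra and c1qa with values, and acat2, mvk, mvda, lbr, nsdhl, hsd17b7, ebp and sc5d only as members of their list. Marker lists of brain cells, red blood cells and liver (3 of 10 liver genes measured) were summed per library. The list of other pathway enzymes is not complete, and what it leaves out is not reported here. The members and lists were chosen with earlier results of these data known.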

Additional observations from a re-analysis of the deposited data

How the results depend on the processing

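The counts of called enzymes stayed within 1.5 times the reported count in 83 combinations of comparison and setting and moved further in 16. No called difference changed sign. A count of 0 in both fits was scored as unchanged. The comparisons of csf1rb-heterozygous mutants with each other group had 0 calls in the main fit, so many of the 83 are 0 against 0. The 83 is therefore no measure of how well the calls held. DESeq2 called more: 6 in single mutants against control, 1 in csf1rb-heterozygous mutants against control, 3 in csf1rb-heterozygous against single mutants and 7 in double against single mutants. It also called more in other lists, such as 17 microglia genes against 10 with limma in double against single mutants. The share of all genes that DESeq2 called is not given here, so its counts have no baseline. In double mutants against control the count of called enzymes was 0 with a mean of at least 5 CPM, which removes pmvk from the test. It was also 0 with only these groups in the fit, which has fewer libraries. Without the 3 libraries numbered 2, an alternative chosen after seeing the data, double against single mutants gave 2 calls. Leaving out 1 library gave 0 to 2 calls in single mutants, 0 in csf1rb-heterozygous mutants and 0 to 1 in double mutants against control, 2 to 4 in double against single mutants, and 0 in both comparisons with csf1rb-heterozygous mutants; with 1 control left, it is assumed to vary like the other groups. A replicate block by description number gave 1 call, against 0, in csf1rb-heterozygous against single mutants, and 4, 0, 1, 6 and 0 in the other comparisons; a block by title number gave 4, 0, 1, 0, 4 and 0. The block by description number added cyp51 in single mutants against control, and hmgcra and fdft1 in double against single mutants. In comparisons other than csf1rb-heterozygous against single mutants the numbers were not taken to pair the samples, whose same-numbered deviations correlated at r = 0.02 to 0.367. Differently numbered libraries of different groups correlated at r = -0.55 to 0.213. The cause of these changes was not tested. With 2 control libraries and few reads for pmvk, fdft1 and lss, smaller differences may have been missed.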

Other observations

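Among 16526 other genes, those whose centred log2(CPM + 1) level over the 11 libraries ran closest to the mean of the 10 enzymes were fdps, tmem97, limk1b, rdh12l, si:dkey-122a22.2, chd, ublcp1 and rgn. Their mean absolute difference from the enzymes' mean profile was 0.11 for fdps, 0.11 for tmem97 and 0.12 for rgn, where the profile itself had a mean size of 0.28. Each of the 8 had its highest mean level in the single mutants. tmem97, a sterol-regulated membrane protein in mammals, had means of 14.7 ± 0.506 CPM (SD, n = 2) in control, 19.6 ± 0.413 (SD, n = 3) in single, 16.0 ± 2.00 (SD, n = 3) in csf1rb-heterozygous and 13.7 ± 0.615 (SD, n = 3) in double mutants. chd, which encodes the BMP antagonist chordin, had means of 2.24 ± 0.655 CPM (SD, n = 2) in control, 4.04 ± 0.350 (SD, n = 3) in single, 2.36 ± 0.327 (SD, n = 3) in csf1rb-heterozygous and 1.83 ± 0.230 (SD, n = 3) in double mutants. These genes were picked for this likeness, so no test was made of it.

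Myelin and haemoglobin genes gave calls of their own in the comparisons described. mbpa, myelin basic protein, fell in double mutants against control by 0.75 on the log2(CPM + 1) scale (limma adjusted p = 0.0222), from 7624 and 6456 CPM in the controls to 3625, 4490.3 and 4495 CPM. It was not called without control replicate 1 (limma adjusted p = 0.143) or double mutant replicate 1 (0.0677). hbaa1, an alpha globin, fell from single to double mutants by 1.59 (limma adjusted p = 0.0173), with 126, 259 and 205 CPM in the single mutants and 45.97, 66.4 and 77.1 CPM in the double mutants. It was not called without single mutant replicate 2 (limma adjusted p = 0.0578) or 3 (0.0863), without double mutant replicate 1 (0.0767) or 2 (0.0601), or without the 3 libraries numbered 2 (0.0649).

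Microglia and macrophage genes had the greatest falls among the marker genes named. Of the 23 listed, 21 lay below 0 and 2 above 0 in double mutants against control, the highest at 1.56. In double mutants against control, ccl34b.1 fell (-3.74 on the log2(CPM + 1) scale, limma adjusted p = 0.000202), as did cd74a, the MHC class II invariant chain (-3.28, 0.000538), and spi1a, a myeloid transcription factor (-2.80, 0.00161). The galectin-related genes lgals9l1 (-4.14, limma adjusted p = 0.00161) and lgals3bpb (-4.64, 0.00363) fell too, and so did csf1rb, itself mutated in this group (-2.51, 0.00277). These 6 were called in each of the 5 fits that left out a library. From single to double mutants ccl34b.1 (-2.26, limma adjusted p = 0.00211), cd74a (-2.48, 0.00102), spi1a (-1.92, 0.00580) and csf1rb (-1.91, 0.00661) fell and were called in each of 6 such fits. lgals3bpb also fell there (-2.91, 0.0221) and was called in 2 of the 6.

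Neuronal, haemoglobin and liver genes gave calls that did not hold in most fits that left out a library. vamp2, a synaptic vesicle protein, fell by 0.61 in double mutants (limma adjusted p = 0.0224) and by 0.66 in csf1rb-heterozygous mutants (limma adjusted p = 0.0210) against control, called in 0 and 1 of the 5 fits. map2, a microtubule protein of dendrites, fell by 0.49 in double mutants against control (limma adjusted p = 0.0402) and was called in 1 of the 5. In csf1rb-heterozygous against single mutants the globin genes hbaa1 (-1.65, limma adjusted p = 0.0406) and hbaa2 (-2.31, 0.0298) fell, called in 2 and 1 of the 6 fits. apoa1b, an apolipoprotein, fell by 1.88 there (limma adjusted p = 0.0282), called in 0 of the 6. Of 15 radial glia genes limma, edgeR and DESeq2 called 0 in single mutants against control. An unadjusted p under 0.05 in limma was found for 5 of the 15 and for 1881 of all 16536 genes. The radial glia genes slc1a2b and glula, the 2 with the highest mean level, differed by 0.03 and 0.24 there.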
